A study of Homo sapiens with 6 samples.

Results

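The 10 genes that write, copy or erase DNA methylation or make up the Polycomb repressive complex PRC2, as followed here, were DNMT1, DNMT3A, DNMT3B, UHRF1, TET1, TET2, TET3, EZH2, SUZ12 and EED. They were taken by name, as 10 of the 56303 rows of the gene count table, and all 10 were found and passed the filter on low counts. On GRCh38, DNMT1 and UHRF1 lie on chromosome 19, DNMT3A and TET3 on 2, DNMT3B on 20, TET1 on 10, TET2 on 4, EZH2 on 7, SUZ12 on 17 and EED on 11. The measurements came from 6 RNA-seq libraries of SW480, a human colon adenocarcinoma cell line. Of these, 3 were from cells with a control hairpin (shCtrl, genotype label WT) and 3 from cells with a hairpin against RBM39 (shRBM39, genotype label RBM39 knockdown). RBM39 is an RNA-binding splicing factor, and the comparison asked which transcripts and exons differed when it was reduced. Per the paper, both groups were stable clonal lines that carried a lentiviral hairpin and had been selected with puromycin. The control hairpin was nonsilencing. The number of clones behind each group is not given, so the knockdown and differences between clones cannot be told apart. Which hairpin against RBM39 was used is not given in the sources used here. The 3 libraries of a group are described there as independent replicate experiments, with no word on separate cultures, and p-values measure the spread between these libraries.

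DNMT1 copies the methylation of CpG sites onto the new strand after DNA replication, and UHRF1 binds the half-methylated sites and brings DNMT1 there. DNMT3A and DNMT3B add methyl groups at new sites, while TET1, TET2 and TET3 oxidise methylcytosine as a step towards its removal. PRC2 methylates a lysine of histone H3 at repressed genes, with EZH2 as the catalytic subunit, SUZ12 as the scaffold and EED as the subunit that reads the mark.

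Several of these genes are transcribed mainly around S phase in dividing cells, where E2F factors act on their promoters. The RefSeq promoter windows on GRCh38.p14, each 300 bases from 250 before to 50 after an annotated start, were therefore searched for the words TTTCCCGC, TTTGGCGC, TTTCGCGC and TTTGCCGC on both strands. TTTCGCGC and its reverse complement can overlap, and each was counted where it stood. Such a word stood in a window of 4 of the 10 genes, against 6.47% of the 10702 tested genes that have a window. Genes with more windows have more places for a match. Counted by window, it stood in 5 of the 22 windows of the 10 genes, against 3.31% of all 35116 windows. A match is a description of letters and not a bound site. Below are the windows of UHRF1 (chr19:4909251-4909550, plus strand), DNMT1 (chr19:10194904-10195203, minus strand), SUZ12 (chr17:31936757-31937056, plus strand) and EZH2 (chr7:148884242-148884541, minus strand), written 5′ to 3′ along the gene with the word in capitals.
UHRF1: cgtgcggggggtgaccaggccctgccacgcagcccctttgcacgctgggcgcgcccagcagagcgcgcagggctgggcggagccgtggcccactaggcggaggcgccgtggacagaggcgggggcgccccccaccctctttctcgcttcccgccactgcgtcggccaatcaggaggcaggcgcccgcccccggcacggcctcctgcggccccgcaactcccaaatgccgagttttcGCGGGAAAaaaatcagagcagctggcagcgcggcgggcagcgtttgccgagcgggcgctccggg
DNMT1: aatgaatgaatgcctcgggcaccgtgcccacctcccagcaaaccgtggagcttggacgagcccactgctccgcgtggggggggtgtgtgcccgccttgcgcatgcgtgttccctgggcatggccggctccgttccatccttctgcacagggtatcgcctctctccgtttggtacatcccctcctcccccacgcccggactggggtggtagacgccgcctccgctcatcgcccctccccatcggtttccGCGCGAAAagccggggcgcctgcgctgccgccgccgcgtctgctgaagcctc
SUZ12: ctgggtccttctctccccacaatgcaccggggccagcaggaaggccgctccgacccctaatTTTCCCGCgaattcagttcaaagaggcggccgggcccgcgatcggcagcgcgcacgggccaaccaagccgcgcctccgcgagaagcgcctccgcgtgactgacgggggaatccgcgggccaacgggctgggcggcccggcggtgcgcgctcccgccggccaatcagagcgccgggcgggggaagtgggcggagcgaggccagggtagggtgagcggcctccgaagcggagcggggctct
EZH2: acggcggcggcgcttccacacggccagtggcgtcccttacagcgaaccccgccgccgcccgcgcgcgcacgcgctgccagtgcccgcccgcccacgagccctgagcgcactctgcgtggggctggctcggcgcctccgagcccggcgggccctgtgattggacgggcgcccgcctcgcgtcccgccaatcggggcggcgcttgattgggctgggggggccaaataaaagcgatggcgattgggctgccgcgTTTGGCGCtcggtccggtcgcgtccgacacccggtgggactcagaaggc

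Counting the start as base 1 and the base before it as -1, the word began at -14 in the UHRF1 window, at -2 in DNMT1, at -189 in SUZ12 and at 2 in EZH2. A second window of UHRF1 held another word at -160. No word was found in the windows of DNMT3A, DNMT3B, TET1, TET2, TET3 or EED. UHRF1, DNMT1 and SUZ12 were higher in shRBM39 and EZH2 was lower, as described below.

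RBM39 itself, which checks the labels, was measured at 441, 448 and 435 scaled counts (CPM) in the shCtrl libraries. CPM is the count as parts of a library of 1e6 counts, scaled by the trimmed mean of M-values (TMM). The 3 shRBM39 libraries held 266, 276 and 292 CPM, all below the controls. The log2 fold change was -0.67 ± 0.037 (standard error, n = 3 and 3; edgeR quasi-likelihood test, Benjamini-Hochberg adjusted p = 2.41e-23). Library totals were 18042924 to 20428901 counts. The colon epithelial markers EPCAM, KRT8, KRT18, KRT19 and VIL1 were all abundant, with KRT8 at 6924 ± 233 CPM (SD, n = 3) in shCtrl and VIL1 at 693 ± 2.68. CDX2, an intestinal transcription factor, went from 21.7 ± 0.616 to 4.95 ± 0.529 CPM (adjusted p = 1.40e-28, edgeR), CDX1 was at or near 0, and CDH17 (2.71 to 1.07 CPM, lower) and KRT20 (0.310 to 1.12 CPM, higher) were called at low levels. The leukocyte marker PTPRC and the endothelial marker KDR had no count in any library. Both endothelial markers that were tested were called higher in shRBM39 (edgeR). These were PECAM1 (log2 0.79, adjusted p = 1.26e-06) and VWF (log2 1.39, adjusted p = 3.55e-05). Of 3 tested fibroblast markers COL1A1 was called higher (log2 0.81, adjusted p = 3.49e-09, edgeR) and 2 were not called. Summed over each marker list, RPKM was 2.31 to 2.69 in shCtrl and 2.51 to 2.81 in shRBM39 for fibroblasts, 0.131 to 0.362 and 0.0686 to 0.164 for leukocytes, and 0.440 to 0.597 and 0.761 to 0.930 for endothelial cells. The part of these markers in the results was not tested.

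Of the 10 genes, 4 rose (DNMT1, UHRF1, SUZ12 and EED), 3 fell (EZH2, TET1 and TET2) and 3 did not pass the test (DNMT3A, DNMT3B and TET3) at an adjusted p of 0.05 over 18243 tested genes. Over all tested genes 59.5% were called, 29.3% as higher and 30.2% as lower, so a share of 7 in 10 lies near that background and is read as a description of these genes alone. The median log2 fold change of the 10 genes was 0.071, against -0.014 over all tested genes, and with libraries scaled by their totals alone it was -0.053, against -0.14. In bulk RNA, more or fewer cells with a transcript and more or less of it per cell cannot be told apart.

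**Figure D1:**
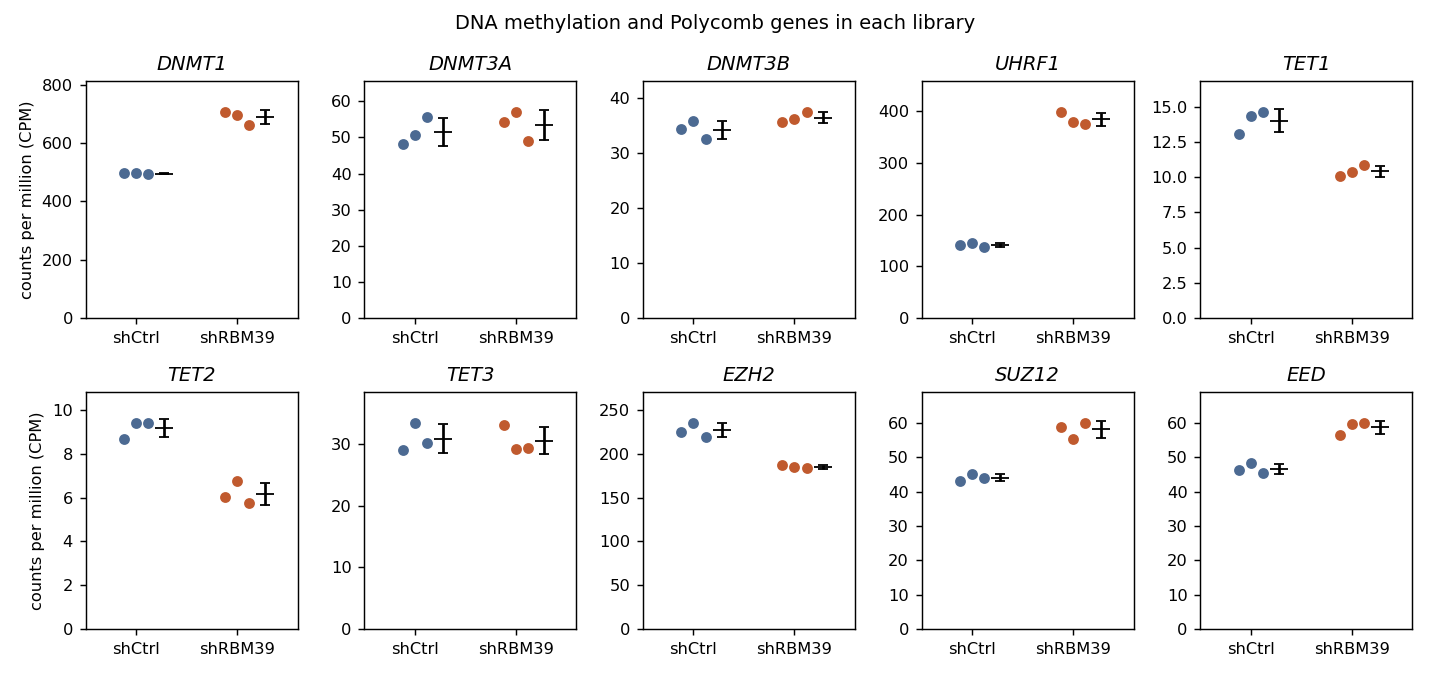
Level of each of the 10 genes in CPM (vertical axis, from 0, with its own scale per gene) in the 3 shCtrl and 3 shRBM39 libraries, as 1 point per library beside the mean and SD. UHRF1 and DNMT1 lie higher in every shRBM39 library, TET1, TET2 and EZH2 lie lower, and the points of DNMT3A, DNMT3B and TET3 overlap between the groups.

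The pair that copies methylation rose together. UHRF1 was at 141, 145 and 138 CPM in shCtrl and at 398, 378 and 376 CPM in shRBM39. The groups were far apart next to their spread, with a 2.71-fold rise (log2 fold change 1.44 ± 0.038, adjusted p = 8.27e-39, edgeR). A rise as large or larger was rare, since 0.707% of the tested genes had a higher log2 fold change. UHRF1 was the only one of the 10 to pass both the test and a 2-fold change, as 6.51% of tested genes did in either direction and 2.36% upward. DNMT1 was at 497, 496 and 493 CPM in shCtrl and at 706, 697 and 660 CPM in shRBM39. All 3 knockdown libraries lay above all 3 controls, and the rise was 1.39-fold (log2 0.47 ± 0.036, adjusted p = 1.67e-17, edgeR). The DNMT1 row shares 69 exon bases (0.704% of its exon length) with S1PR2 on the same strand, a gene with a mean of 30.3 counts, so reads in that stretch could belong to either.

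The enzymes that methylate new sites did not pass the test. DNMT3A was at 48.3, 50.5 and 55.8 CPM in shCtrl and at 54.4, 57.1 and 49.0 CPM in shRBM39, with overlapping groups (log2 0.051 ± 0.053, adjusted p = 0.414, edgeR). DNMT3B was at 34.4, 35.8 and 32.6 CPM in shCtrl and at 35.7, 36.3 and 37.5 CPM in shRBM39, again with overlap (log2 0.090 ± 0.054, adjusted p = 0.150, edgeR). The sign of these small values turned negative for both genes when libraries were scaled by their totals alone, to -0.073 for DNMT3A and -0.034 for DNMT3B. With a correction for GC content and exon length DNMT3A passed the test at 0.16 (adjusted p = 0.00449, edgeR).

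Of the TET dioxygenases, TET1 and TET2 fell. TET2 was at 8.68, 9.42 and 9.40 CPM in shCtrl and at 6.02, 6.74 and 5.73 CPM in shRBM39, so that each knockdown library lay below each control. Its log2 fold change was -0.58 ± 0.105 (adjusted p = 3.75e-06, edgeR), the lowest of the 10 genes. TET1 was at 13.1, 14.3 and 14.6 CPM in shCtrl and at 10.1, 10.3 and 10.8 CPM in shRBM39. It was lower in every knockdown library, with a log2 fold change of -0.43 ± 0.085 (adjusted p = 1.76e-05, edgeR). TET3 overlapped between the groups at 29.1, 33.4 and 30.1 CPM against 33.1, 29.1 and 29.4 CPM (log2 -0.015 ± 0.061, adjusted p = 0.842, edgeR). With library totals alone TET3 was called lower at -0.14 (adjusted p = 0.0476, edgeR), and with the GC and length correction its value was 0.098 and not called. TET2 rested on 111 to 200 counts per library, and TET1 on 178 to 304, the smallest counts among the 10 genes.

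The PRC2 core moved in opposite directions. EZH2 was at 225, 235 and 219 CPM in shCtrl and at 187, 184 and 184 CPM in shRBM39, lower in all 3 knockdown libraries (log2 -0.29 ± 0.037, adjusted p = 7.53e-10, edgeR). SUZ12 was at 43.1, 45.1 and 44.1 CPM in shCtrl and at 58.95, 55.4 and 60.1 CPM in shRBM39, higher in all 3 (log2 0.40 ± 0.048, adjusted p = 1.30e-10, edgeR). EED was at 46.1, 48.2 and 45.4 CPM in shCtrl and at 56.5, 59.6 and 60.0 CPM in shRBM39, also without overlap (log2 0.33 ± 0.048, adjusted p = 1.72e-08, edgeR). In all, 7 of the 10 genes had groups without overlap, as 63.3% of all tested genes did. SUZ12 has a pseudogene copy, SUZ12P1, with 244 to 299 counts in each library, so reads that match both are assigned with uncertainty. The SUZ12P1 row did not pass the test (log2 0.061 ± 0.078, adjusted p = 0.515, edgeR).

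**Figure D2:**
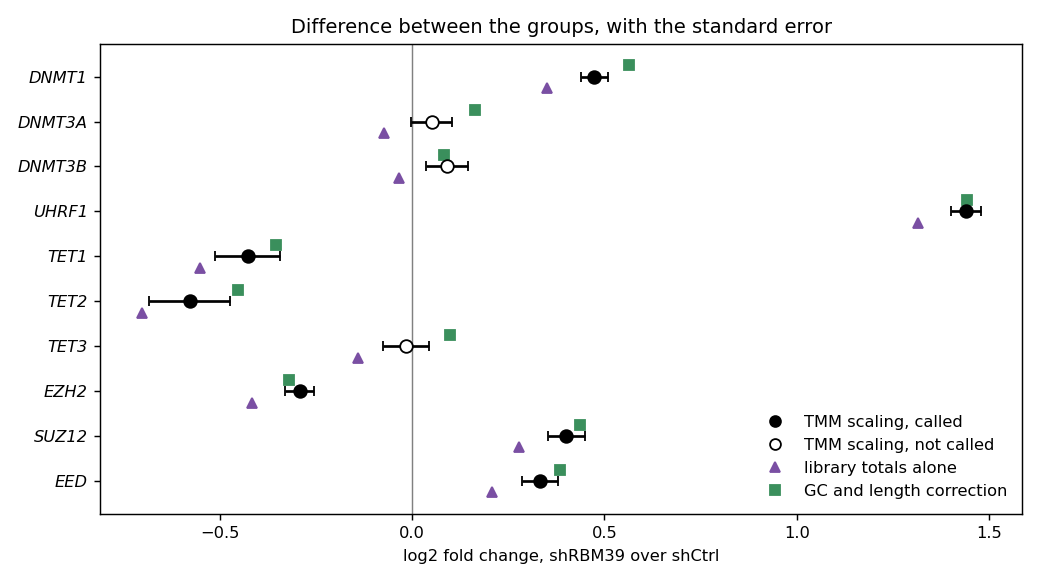
Log2 fold change of shRBM39 over shCtrl (horizontal axis) for each of the 10 genes, with the standard error, filled where the adjusted p was under 0.05. Triangles give the value with library totals alone and squares the value with a GC content and length correction, and the signs of DNMT3A, DNMT3B and TET3 change among them.

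Levels were compared between genes only per length, as the deposited RPKM values (reads per kilobase of exon, scaled to the library), which use library totals. The length is that of all annotated exons of a gene merged, from 4522 bases for EZH2 to 16474 for TET2. It is not the length of the transcript in these cells, so the order of genes and the size of their ratios depend on it. In shCtrl the order was DNMT1 (mean 52.7), EZH2 (52.2), UHRF1 (28.7), DNMT3B (7.72), SUZ12 (7.02), EED (6.92), DNMT3A (4.47), TET3 (2.62), TET1 (1.57) and TET2 (0.580). DNMT1 and EZH2 overlapped between their 3 libraries, as did SUZ12 and EED, and the other neighbours did not. In shRBM39 UHRF1 came first at 71.4 RPKM, above DNMT1 at 67.2 and EZH2 at 39.2. SUZ12 (8.50), EED (8.005) and DNMT3B (7.54) followed, where SUZ12 overlapped EED and EED overlapped DNMT3B, and the order from DNMT3A (4.26) through TET3 (2.38) and TET1 (1.07) to TET2 (0.358) was kept. TET2 was the least abundant of the 10 in both groups, and 86.8% of tested genes in shCtrl lay above it.

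The levels were also set against each other within each library, as 6 ratios of RPKM that were chosen with these results known. EZH2 over SUZ12 was 7.56, 7.56 and 7.20 in shCtrl and 4.604, 4.82 and 4.42 in shRBM39. EZH2 over EED went from 7.55 ± 0.0399 to 4.90 ± 0.222 (SD, n = 3), while EED over SUZ12 overlapped between the groups at 0.986 ± 0.0221 and 0.943 ± 0.0559. The catalytic subunit's transcript was thus lower relative to both partners, which restates the calls of EZH2, SUZ12 and EED given above. The direction of the EZH2 ratios to SUZ12 and EED followed from those calls, so their tests below add no support. The ratio of the partners to each other overlapped between the groups. UHRF1 over DNMT1 was 0.541, 0.559 and 0.532 in shCtrl and 1.07, 1.03 and 1.083 in shRBM39. With 3 libraries against 3 the two-sided exact permutation test cannot go below 0.1, the value that EZH2 over SUZ12, EZH2 over EED and UHRF1 over DNMT1 reached (adjusted over the 6 ratios, p = 0.2). For EED over SUZ12 the exact permutation p was 0.4, for DNMT3A over DNMT3B it was 0.8, and for EZH2 over EZH1, its paralog, it was 0.4.

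**Figure D3:**
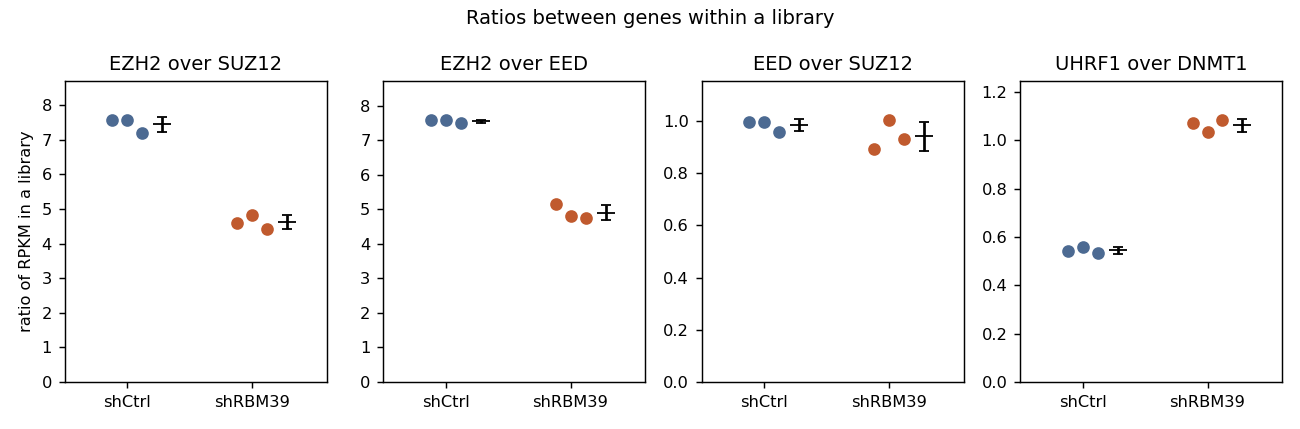
Ratio of RPKM of 2 genes within a library (vertical axis, from 0) for the 3 shCtrl and 3 shRBM39 libraries, with the mean and SD. EZH2 over SUZ12 and over EED is lower in every shRBM39 library, UHRF1 over DNMT1 is higher in every one, and EED over SUZ12 overlaps.

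Genes that work with the 10 were read from lists of related genes. In the list of methylation maintenance partners, 4 of 7 rose and 2 fell, with a median log2 fold change of 0.091 that turned to -0.033 with library totals alone (3 higher, 2 lower). LIG1, the ligase that seals newly made DNA, went from 89.3 to 190 CPM (log2 1.09 ± 0.041, adjusted p = 2.37e-31, edgeR), and HELLS, a chromatin remodeller needed for DNA methylation, from 81.8 to 163 CPM (log2 0.99 ± 0.040). USP7, a deubiquitinase that binds UHRF1 and DNMT1, fell by 0.22 on the log2 scale. Among the demethylation partners 2 of 7 rose and 3 fell, or 0 and 4 with library totals alone, and OGT, the glycosyltransferase that TET proteins bind, fell from 272 to 134 CPM (log2 -1.02 ± 0.037, adjusted p = 6.27e-32, edgeR). Of 8 methyl-CpG readers 3 rose and 3 fell, or 1 and 4 with library totals alone, the highest being MBD3 (log2 0.35) and the lowest ZBTB38 (log2 -0.45).

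Other PRC2 genes were more often higher than lower. Of 10 partners 6 rose and 1 fell with a median of 0.24, or 5 and 2 with a median of 0.12 with library totals alone. Those that rose included the histone-binding subunit RBBP4 (127 to 200 CPM, log2 0.65 ± 0.037) and the accessory factor MTF2 (26.7 to 40.4 CPM, log2 0.60 ± 0.056). AEBP2, another accessory subunit, fell by 0.33 on the log2 scale. The PRC1 list covers a separate Polycomb complex that ubiquitinates histone H2A. In it 5 of 22 rose and 11 fell, with a median of -0.18. With library totals alone 2 rose and 14 fell, with a median of -0.30. CBX7, a subunit that binds methylated histone H3, fell by 0.72 on the log2 scale (adjusted p = 4.59e-07, edgeR), and L3MBTL2 was the highest of the list at 0.57. The list of Polycomb opponents held genes with a part in removing Polycomb histone marks, which need not oppose Polycomb silencing. Of the 6 tested 1 rose and 3 fell, or 1 and 5 with library totals alone. The histone demethylase KDM6B fell from 93.7 to 44.9 CPM (log2 -1.06 ± 0.046), and its relative KDM6A fell by 0.43. Over all 60 tested related genes 73.3% were called, 21 higher and 23 lower, beside 59.5% of all tested genes.

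Markers of S phase and proliferation moved beside UHRF1 and DNMT1. All 12 rose, beside 29.3% of all tested genes called higher, with a median log2 fold change of 1.0. The list was chosen with earlier results of these data known. Summed RPKM of the 12 lay between 499 and 516 in the shCtrl libraries and between 873 and 885 in the shRBM39 libraries. MCM5, a subunit of the replicative helicase, went from 73.8 to 187 CPM, and PCNA, the replication clamp, from 62.6 to 149 CPM. The part of these markers in the changes of the 10 genes was not tested. An E2F word stood in a window of 5 of the 10 of these markers that have a window.

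**Figure D4:**
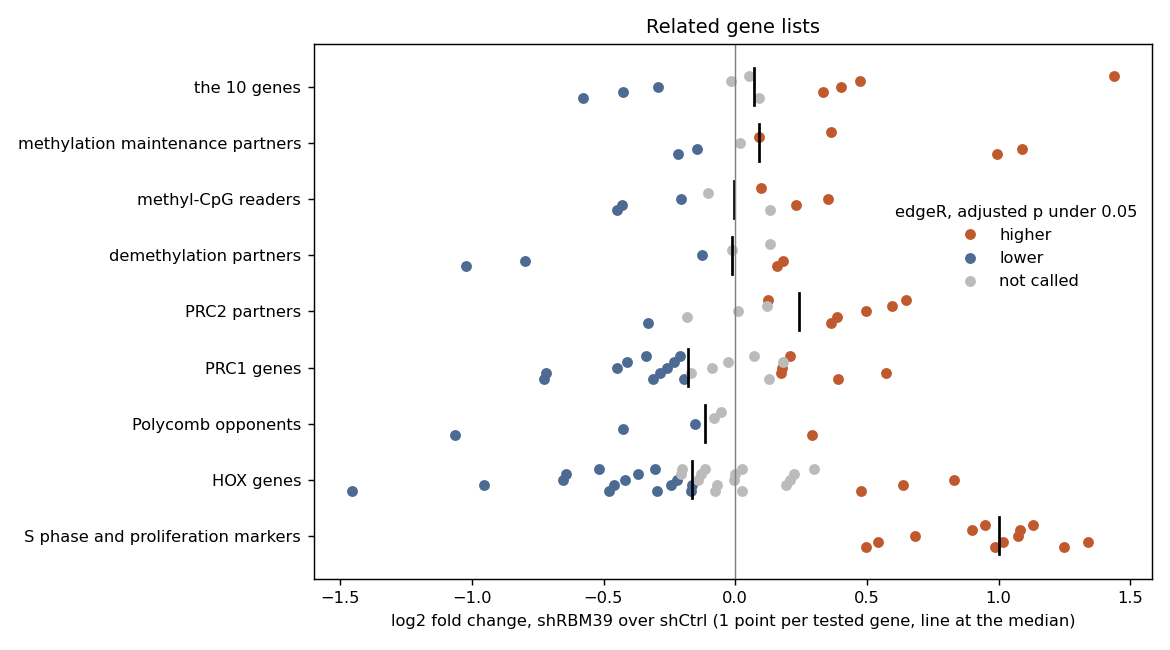
Log2 fold change of shRBM39 over shCtrl (horizontal axis) for every tested gene of the 10 and of 8 lists, 1 point per gene, coloured by the edgeR call, with the median as a line. The 12 markers of S phase and proliferation all lie above 0, and the PRC1 genes and HOX genes have medians below 0.

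Genes whose silence depends on these systems were read next. Of 12 germline genes that DNA methylation keeps silent in somatic cells, 11 did not pass the filter on low counts, 4 of them with no count in any library, and the one tested, SYCP3, did not pass the test (edgeR). Their summed RPKM was 0.230 to 0.309 in shCtrl and 0.252 to 0.295 in shRBM39. Among the HOX genes, developmental regulators that are textbook Polycomb targets, 3 of 33 tested rose, 15 fell and 15 did not pass, with a median of -0.16, or 3 and 18 with a median of -0.29 with library totals alone. The called share of the HOX genes was 54.5%, beside 59.5% of all tested genes. HOXC5 (log2 0.83) and HOXB8 (log2 0.64) rose the most, and HOXB9 (log2 -0.52) and HOXC6 (log2 -0.48) fell the most among those with at least 5 CPM on average. Neighbouring HOX genes overlap in the annotation in places, so some reads may be split between them.

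Splicing was read from the deposited table of alternative exons. Each record gives, for 2 groups of 3 libraries called group 1 and group 2, the reads that include and skip an exon and the inclusion level, the share of transcripts that keep the exon after correction for length. No label says which of the groups is the knockdown, so the records are described by group number. All records have an absolute difference of at least 0.1 between the groups, so they had been selected for a difference and no test was run on them. Records stood for 5 of the 10 genes, while 6.54% of tested genes had at least 1. The exons of SUZ12 (chr17:31947617-31947685) and DNMT3B (chr20:32791601-32791708) are printed since they have the most reads, both on the plus strand of GRCh38, with the exon in capitals and 20 bases of intron on each side. The ASXL1 exon (chr20:32429901-32430053, plus strand) is printed beside them as a related one with more reads. The paper lists this ASXL1 exon among the skipped exons that it reports as regulated by both RBM39 and MORC2.
SUZ12: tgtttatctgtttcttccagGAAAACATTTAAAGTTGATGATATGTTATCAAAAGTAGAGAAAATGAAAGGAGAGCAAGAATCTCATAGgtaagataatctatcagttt
DNMT3B: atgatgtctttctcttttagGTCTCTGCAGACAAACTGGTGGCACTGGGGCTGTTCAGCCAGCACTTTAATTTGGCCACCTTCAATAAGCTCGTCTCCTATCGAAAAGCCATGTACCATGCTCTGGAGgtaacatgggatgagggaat
ASXL1: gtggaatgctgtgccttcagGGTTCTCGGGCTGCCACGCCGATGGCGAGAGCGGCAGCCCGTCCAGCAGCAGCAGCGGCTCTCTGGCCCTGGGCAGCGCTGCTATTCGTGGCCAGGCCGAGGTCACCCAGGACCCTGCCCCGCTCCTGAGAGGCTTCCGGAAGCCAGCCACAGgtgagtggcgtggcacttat

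The SUZ12 exon is exon 4 of 16 in the canonical GENCODE transcript, 69 bases of coding sequence that keep the reading frame when skipped. Its inclusion level was 0.696, 0.895 and 0.705 in group 1 and 0.867, 0.957 and 1 in group 2, which overlap, on 14 to 35 reads per library. The group means differed by -0.176 (group 1 minus group 2). The DNMT3B exon is exon 8 of 23, 108 coding bases that also keep the frame. It was included at 0.699, 0.804 and 0.686 in group 1, against 0.686, 0.920 and 0.929 in group 2, on 10 to 25 reads. The groups overlap, and their means differed by -0.115, or by -0.195 without the first library of group 2 and by -0.073 without the third. Exon 8 of 12 of EED, 134 bases whose loss shifts the frame, was at 1, 0.621 and 0.663 against 1, 1 and 0.865, on 10 to 15 reads. Exon 6 of 12 of TET1, 94 coding bases, was at 0.367, 0 and 0.367 in group 1 and 1, 0.465 and 1 in group 2, on 1 to 5 reads per library. Exon 2 of 11 of TET2, which is noncoding, was at 1, 0.320 and 1 against 0.485, 0.414 and 0.586, on 2 to 6 reads. At these depths 1 read moves a level by a large step.

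Of the 5 records, 4 had a lower level in group 1, and so did 68.5% of all 1582 records. The level of the TET1 exon was the only one of the 5 without overlap between groups. The share of all 1582 records without overlap was not counted, so nothing is read from the overlap of single records. No record of the 10 genes reached 20 reads in every library, a depth that 35% of all records reached. EZH2, DNMT1, UHRF1, DNMT3A and TET3 had no record. Among the 8 records of related genes 3 did reach that depth. The ASXL1 exon, exon 8 of 13 of a subunit of the BAP1 deubiquitinase, was included at 0.496, 0.573 and 0.614 in group 1, against 0.728, 0.861 and 0.812 in group 2, and the means differed by -0.240. The OGT exon, exon 7 of 22, was at 0.710, 0.650 and 0.489 against 0.752, 0.761 and 0.718, on 85 to 242 reads. The MBD4 record covered 866 bases and differed by -0.282 on 32 to 39 reads.

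**Figure D5:**
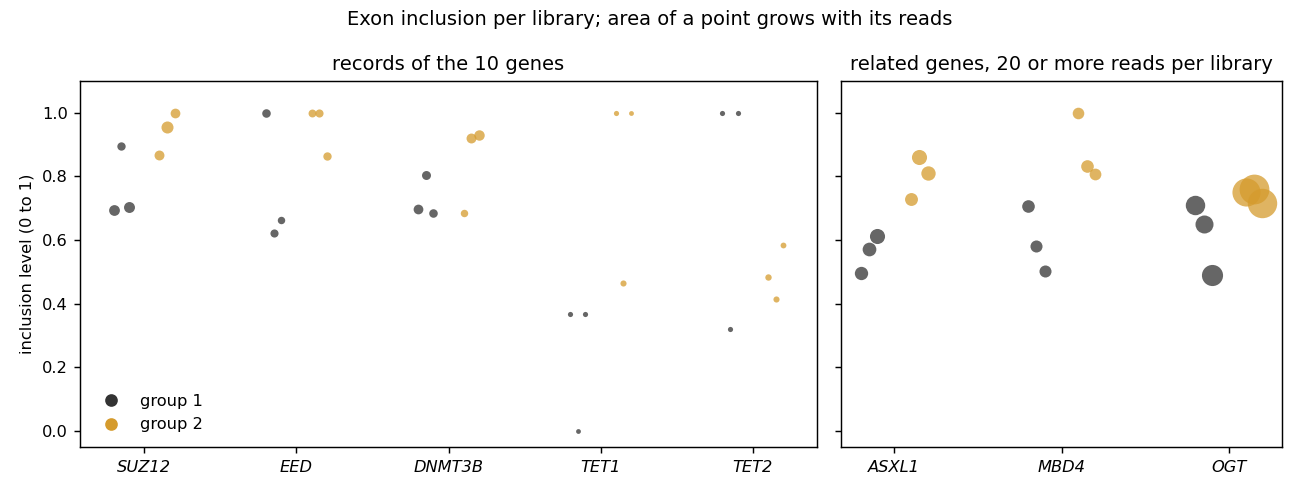
Inclusion level (vertical axis, 0 to 1) of each recorded exon in the 3 libraries of group 1 and of group 2, with the area of a point growing with its reads. The 5 exons of the 10 genes rest on small points and 4 of them overlap between groups, while those of ASXL1, MBD4 and OGT do not overlap. The share of all records without overlap was not counted.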

How the data were processed

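RNA-seq was made from 6 SW480 libraries, 3 shCtrl and 3 shRBM39. Per the labels, the authors trimmed reads with Trimmomatic 0.36, aligned them to GRCh38 with STAR 2.5.3a and counted them with featureCounts of Subread 1.5.1; edgeR 3.12.1 is also named. The deposited count table holds raw counts per gene (56303 rows) and RPKM, which equals counts per exon length and library total. Columns headed NC were read as shCtrl. The deposited splicing records, made with rMATS, hold read counts and inclusion levels as a fraction, and the authors' own p-values and differences there were not used. The 10 genes and the lists were chosen with earlier results of these data known.

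Genes were filtered with filterByExpr (18243 kept), scaled by TMM and tested with edgeR 4.0.16 in R 4.3.3 by the quasi-likelihood test, with p-values adjusted by Benjamini and Hochberg over the tested genes and a threshold of 0.05; the standard error is the log2 fold change over the root of the F statistic. On simulated data with these library sizes the fit recovered 100% of 100 genes changed by a log2 of 1 and 89% of 100 changed by 0.5. The changed genes there were not drawn from low counts, and all other genes of the 18002 tested were unchanged. A single dispersion was used for every gene, so these rates need not carry over to the data. The replicate chi-square per degree of freedom was 2.11 to 4.21, so no pair agreed within sampling noise. Library totals were 18042924 to 20428901 counts, and standard errors include the spread between libraries. From each related list, up to 2 genes per direction were named among those called, at 5 CPM or more on average and without overlap, except for a result that is not reported here. Alternatives were DESeq2 1.42.0, limma 3.58.1 on log2 RPKM, other scalings and filters, a GC and length correction, a replicate block, a null of 0.5 on the log2 scale and leaving out each library. Promoters came from RefSeq, and positions and exons from GENCODE 44.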

Additional observations from a re-analysis of the deposited data

How the results depend on the processing

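The 7 called genes (UHRF1, DNMT1, SUZ12, EED, EZH2, TET1 and TET2) kept direction and call under every scaling, filter and tool run, under an adjusted p of 0.01, in the replicate block and without each library. Against a log2 fold change of 0.5 only UHRF1 was called, so 1 gene was called, 1 as higher and 0 as lower, with 6 related genes and 2230 genes over all. No pairing was found between replicate numbers (correlations 0.016, -0.040 and 0.025), and the replicate block called 10879 genes against 10854. Leaving out 1 library called 10198 to 10293 genes, always 7 of the 10 (4 higher, 3 lower) and 40 to 44 related genes. The 3 uncalled genes turned sign: with library totals alone DNMT3A was -0.073 and DNMT3B -0.034, with limma on log2(RPKM + 1) they were -0.057 and -0.029, and with a pseudocount of 0.1 they were -0.069 and -0.032. TET3 was 0.098 with the GC and length correction, and -0.075 to 0.048 without 1 library, turning positive without shCtrl replicate 2 (0.048), shRBM39 replicate 2 (0.020) or shRBM39 replicate 3 (0.017). TET3 was called lower under library totals (-0.14, adjusted p = 0.0476, edgeR) and DNMT3A higher under the GC and length correction (0.16). Library totals alone move the median of all genes from -0.014 to -0.14 and the share of calls that are higher from 49.3% to 33.9%, and limma on RPKM gives 33.6%. DESeq2 called 8481 genes over all. With a minimum of 20 reads in every library, 0 of the 5 splicing records remained, so the depth of those records limits what they show. The cause of these changes was not tested.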
